A study of Zea mays with 4 samples.

Results

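The carotenoid synthesis genes of maize were followed in leaf 6 of the inbred line B73 under high and low nitrogen supply. They were chosen by gene ID from a list of 10 that covers the pathway from phytoene synthase to zeaxanthin epoxidase. The deposited table, with 43110 distinct loci, holds 8 of the 10 IDs, and all 8 have at least 1 FPKM in at least 2 libraries, as do 22889 loci in all. FPKM means fragments per kilobase of transcript, scaled to the size of the library, which allows levels to be compared between genes. The other two IDs, those of the phytoene and zeta-carotene desaturases, are not row names of the table. It lists PDS1 and ZDS1 by symbol instead, symbols that RefSeq pairs with those IDs, and their values are given beside the 8 but are not counted with them.

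Plants of both groups were raised in a growth chamber on nutrient solution with 4 mM nitrate, which the high nitrogen plants kept. The low nitrogen plants received 0.04 mM nitrate from the full expansion of leaf 3 onwards. Their solution held calcium chloride in place of the missing calcium nitrate, so nitrate and chloride supply differed together. The high nitrogen and the low nitrogen group have 2 libraries each, 4 in all, which the submitters call biological replicates without saying how many plants went into a library, so the p-values measure the spread between these libraries, which may in part be technical. Mature tissue of the leaf was sampled, which is a mixture of cell types.

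Carotenoids are made in plastids from geranylgeranyl diphosphate (GGPP). Phytoene synthase joins GGPP molecules into colourless phytoene, desaturases and isomerases turn phytoene into red lycopene, and lycopene cyclases open the branches, towards lutein on the one hand and on the other towards beta-carotene, zeaxanthin and violaxanthin. In leaves these pigments harvest light, and zeaxanthin takes part in the harmless release of excess light energy. Violaxanthin and neoxanthin are also the source of abscisic acid.

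No member passed the call rule of an adjusted p under 0.05 with an absolute log2 fold change above 1 (limma on log2(FPKM + 1), adjusted over all 22889 tested loci). Over all tested loci 0.537% were called, 0.489% with a lower and 0.0481% with a higher level in low nitrogen. Zeaxanthin epoxidase had the largest difference of the 8, being 4.85 times higher in high than in low nitrogen by its mean FPKM. Among the members with a lower level in low nitrogen it was followed by lycopene epsilon cyclase and the zeta-carotene isomerase. In these 3 genes the low nitrogen libraries were both under the lowest high nitrogen library, 37.5% of the members against 27.2% of all tested loci, and in no member were they both above the highest, as in 26.6% of all tested loci (53.8% in either direction). The same 3 genes had an unadjusted p under 0.05 with a lower level in low nitrogen, which 10.8% of all tested loci had, and no member had one with a higher level, as 9.29% of all tested loci had (20.1% in either direction). A log2 fold change below -1 was found in 2 members, ZEP and LCYE, and in 7.96% of all tested loci. The median log2 fold change of the 8 members was -0.49, and that of all tested loci was -0.01. Leaving out a low nitrogen library moved the median of the members to -0.92 (without replicate 1) or -0.061 (without replicate 2). By its sign, the log2 fold change was below 0 in 6 members and above 0 in 2, and 51% of all tested loci had a log2 fold change below 0. PSY1, counted among the 6, was at -0.0074. With all libraries scaled to equal FPKM sums, 3 members and 3701 of the 22889 tested loci had a log2 fold change below 0. Taken gene by gene, 2 libraries against 2 allow no two-sided exact permutation p under 0.33, so the p-values given for genes rest on a spread pooled by limma over many loci.

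The libraries differed in more than these genes. All FPKM summed to 1.80e+06 and 1.76e+06 under high nitrogen, against 1.14e+06 and 1.04e+06 under low nitrogen. The leaf markers were high, with the mesophyll genes PEPC and PPDK summing to between 25745 and 37646 FPKM under high nitrogen, against between 10517 and 13607 FPKM under low nitrogen, and the pair of rubisco small subunit genes of the bundle sheath to between 13032 and 17422 FPKM and between 3979 and 7652 FPKM. Of 4 meristem and cell division markers, KN1 and LG3 were at 0 in all libraries, and all 4 summed to between 5.47 and 8.47 FPKM. In bulk tissue, fewer cells of a type and less RNA per cell cannot be told apart, and the part of the marker differences in the results was not tested.

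**Figure D1:**
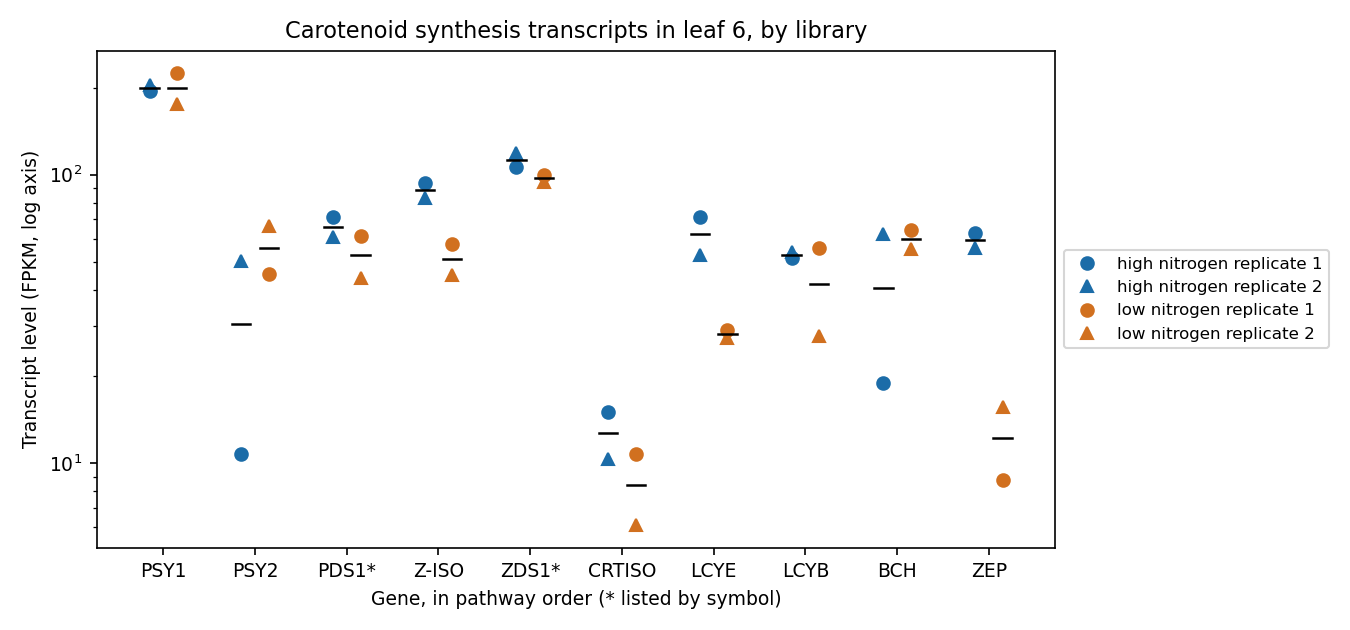
Transcript level in FPKM on a log axis of the 8 carotenoid synthesis genes and, with a star, PDS1 and ZDS1, in pathway order, with circles for replicate 1, triangles for replicate 2 and short lines for group means. In Z-ISO, LCYE, ZEP and ZDS1 both low nitrogen points lie below both high nitrogen points, and in PSY2 and BCH high nitrogen replicate 1, at 10.8 and 18.9 FPKM, lies far below the other three libraries.

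Phytoene synthase makes the committed step of the pathway, and the list holds a pair of its genes. PSY1 (GRMZM2G300348), known in maize as the yellow endosperm gene Y1, lies on chromosome 6 from 82180486 to 82184345 of B73 RefGen_v3. Its level was 194.8 and 204.4 FPKM under high nitrogen against 224.5 and 175.5 FPKM under low nitrogen. The low nitrogen libraries thus lay on either side of the high nitrogen ones, and the log2 fold change was -0.01 (standard error 0.25, adjusted p = 0.991), with a 95% interval from -0.65 to 0.63. PSY1 had the highest FPKM of the 8 members in every library, above 96.7% of the tested loci by its mean over the 4 libraries.

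PSY2 (GRMZM2G149317), the second phytoene synthase gene, lies on chromosome 8 from 167821113 to 167826600. Its level was 10.8 and 50.2 FPKM under high nitrogen against 45.1 and 66.6 FPKM under low nitrogen. Only high nitrogen replicate 1 was low, and the groups overlapped. PSY2 had a log2 fold change of 1.18 (standard error 0.72, adjusted p = 0.420), with a 95% interval from -0.68 to 3.05. Without high nitrogen replicate 1 it was 0.13. The difference between the high nitrogen replicates, 2.12 on the log2(FPKM + 1) scale, was exceeded by 1.56% of the tested loci. A second locus, GRMZM2G450424, overlaps the bounds of PSY2 at 3.94 to 9.25 FPKM, and fragments of overlapping or similar genes could have been split between loci in the authors' estimates.

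The desaturases and isomerases carry phytoene on to lycopene. PDS1, the phytoene desaturase on chromosome 1 from 17660062 to 17666422, had 71.2 and 60.8 FPKM under high nitrogen against 61.4 and 44.0 FPKM under low nitrogen. Its groups overlapped by a narrow margin, and its log2 fold change was -0.33 (standard error 0.27, adjusted p = 0.533). RefSeq gives the ID of PDS to 2 neighbouring genes, and the deposited table lists the neighbour as a separate locus.

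Z-ISO (GRMZM2G011746), the 15-cis-zeta-carotene isomerase on chromosome 10 from 13613175 to 13616729, acts between the desaturases. Its level was 93.4 and 83.2 FPKM under high nitrogen against 57.6 and 44.9 FPKM under low nitrogen. The 2 groups did not overlap. The log2 fold change was -0.78 (standard error 0.25, unadjusted p = 0.0248, adjusted p = 0.191), and a smaller value was found at 11.6% of the tested loci.

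ZDS1, the zeta-carotene desaturase on chromosome 7 from 17481578 to 17492181, had 106.0 and 119.2 FPKM under high nitrogen against 100.04 and 94.5 FPKM under low nitrogen. The groups did not overlap, but the distance between them was small, with a log2 fold change of -0.21 (standard error 0.22, adjusted p = 0.646). Its locus also carries the name GRMZM2G454928 with the same values, so the 2 names cannot be told apart in these data.

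CRTISO (GRMZM2G108457), the carotenoid isomerase that completes lycopene, lies on chromosome 4 from 201046911 to 201051560. It had the lowest mean FPKM of the members in both groups, with 15.1 and 10.4 FPKM under high nitrogen against 10.8 and 6.10 FPKM under low nitrogen. High nitrogen replicate 2 lay just under low nitrogen replicate 1, and the log2 fold change was -0.56 (standard error 0.35, adjusted p = 0.425). It was -0.31 without high nitrogen replicate 1, -0.93 without low nitrogen replicate 1 and -0.20 without low nitrogen replicate 2.

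The cyclases set the branch that lycopene takes. LCYE (GRMZM2G012966), lycopene epsilon cyclase, forms the epsilon ring that lutein carries and lies on chromosome 8 from 138416903 to 138424121. Its level was 71.7 and 52.6 FPKM under high nitrogen against 29.0 and 27.1 FPKM under low nitrogen. The low nitrogen libraries differed little from each other and were well under both high nitrogen libraries. The log2 fold change was -1.10 (standard error 0.25, unadjusted p = 0.00750, adjusted p = 0.137), with a 95% interval from -1.76 to -0.45. RefSeq gives the ID of LCYE to 2 neighbouring genes, of which only one is named as the cyclase, and the single locus of the table may count fragments of both.

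LCYB (GRMZM5G849107), lycopene beta cyclase, forms the beta rings of both branches and lies on chromosome 5 from 100737438 to 100739288. Its level was 51.7 and 53.8 FPKM under high nitrogen against 55.8 and 27.6 FPKM under low nitrogen. Low nitrogen replicate 2 stood alone, at 2.02 times less than low nitrogen replicate 1, and the groups overlapped. LCYB had a log2 fold change of -0.42 (standard error 0.38, adjusted p = 0.583), and without low nitrogen replicate 2 it was 0.08.

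Beyond the cyclases, the list holds the enzymes that add oxygen to the beta branch. BCH (GRMZM2G152135), the beta-carotene hydroxylase that RefSeq names crtRB1, turns beta-carotene into zeaxanthin and lies on chromosome 10 from 136081567 to 136084686. Its level was 18.9 and 62.4 FPKM under high nitrogen against 64.4 and 55.2 FPKM under low nitrogen. As in PSY2, high nitrogen replicate 1 was low while the other three libraries were close together. The log2 fold change was 0.77 (standard error 0.57, adjusted p = 0.502), and without high nitrogen replicate 1 it was -0.06. The difference between the high nitrogen replicates was 1.67 on the log2(FPKM + 1) scale, which 2.98% of the tested loci exceeded.

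ZEP (GRMZM2G127139), zeaxanthin epoxidase, turns zeaxanthin into violaxanthin and lies on chromosome 2 from 45068870 to 45077933. Its level was 62.9 and 55.6 FPKM under high nitrogen against 8.74 and 15.7 FPKM under low nitrogen. The groups lay far apart, the highest low nitrogen library being under the lowest high nitrogen library by more than either group's own range. Mean levels were 59.2 ± 5.16 FPKM (SD, n = 2) and 12.2 ± 4.89 FPKM (SD, n = 2). The log2 fold change was -2.24 (standard error 0.33, unadjusted p = 0.00104, adjusted p = 0.0797), with a 95% interval from -3.08 to -1.40. Values below this were found at 1.30% of the tested loci. Of the 12 processing alternatives, those that change only the filter or the fit leave this value as it is. With both low nitrogen libraries below both high nitrogen libraries, another pseudocount or leaving a library out could not turn its sign. The scalings gave -1.56 (equal FPKM sums), -2.21 (median of ratios) and -2.15 (quantile). With each library left out in turn, the log2 fold change of ZEP ran from -2.63 to -1.85. This ID is in the study's own list of genes with changed expression in the same 4 libraries. Its place there is thus not independent evidence. The study used edgeR with the same thresholds and called more genes than the fit used here, in which ZEP was not called.

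The order of the levels differed between the groups. In high nitrogen the mean FPKM ran from high to low in the order PSY1, Z-ISO, LCYE, ZEP, LCYB, BCH, PSY2 and CRTISO, and in low nitrogen in the order PSY1, BCH, PSY2, Z-ISO, LCYB, LCYE, ZEP and CRTISO. In high nitrogen PSY1 and Z-ISO, Z-ISO and LCYE, and ZEP and LCYB were neighbours whose ranges did not overlap. In low nitrogen this held for PSY1 and BCH and for LCYE and ZEP. All other neighbours overlapped in their 2 replicates. ZEP held 12.1% and 9.71% of the summed FPKM of the 8 members under high nitrogen, against 1.76% and 3.74% under low nitrogen. PSY1 held 37.5% and 35.7% under high nitrogen against 45.3% and 41.9% under low nitrogen. The sum itself was 519.2 and 572.4 FPKM under high nitrogen against 495.9 and 418.7 FPKM under low nitrogen, so both low nitrogen libraries had the lower sums. As a share of the FPKM of all loci the order turned, with 0.0289% and 0.0324% under high nitrogen against 0.0435% and 0.0401% under low nitrogen.

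Ratios between genes of the same library stay the same when a library is scaled by a single factor, and 3 such ratios were compared. BCH to ZEP, the hydroxylase that makes zeaxanthin over the epoxidase that uses it, was 0.301 and 1.12 under high nitrogen against 7.37 and 3.53 under low nitrogen. Both low nitrogen libraries were above both high nitrogen libraries, by 3.13 on the log2 scale between the group means (exact permutation test, two-sided, p = 0.33, the smallest this design allows, and 0.667 adjusted over the 3 ratios). BCH was low in high nitrogen replicate 1, and without that library the difference was 2.18. LCYE to LCYB was 1.39 and 0.977 under high nitrogen against 0.519 and 0.983 under low nitrogen. Replicate 2 had nearly the same ratio in both groups, and the difference of -0.70 on the log2 scale came with overlapping groups (exact permutation test, two-sided, p = 0.667, and 0.667 adjusted). It was -0.24 without low nitrogen replicate 1, -0.45 without high nitrogen replicate 1 and -1.16 without low nitrogen replicate 2. PSY1 to PSY2 was 18.0 and 4.07 under high nitrogen against 4.97 and 2.64 under low nitrogen, again with overlapping groups (log2 difference -1.24, exact permutation test, two-sided, p = 0.667, and 0.667 adjusted). With each library left out in turn, this difference ran from -2.32 (without high nitrogen replicate 2) to -0.17 (without high nitrogen replicate 1). PSY1 thus had the higher level of the pair in each of the 4 libraries.

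**Figure D2:**
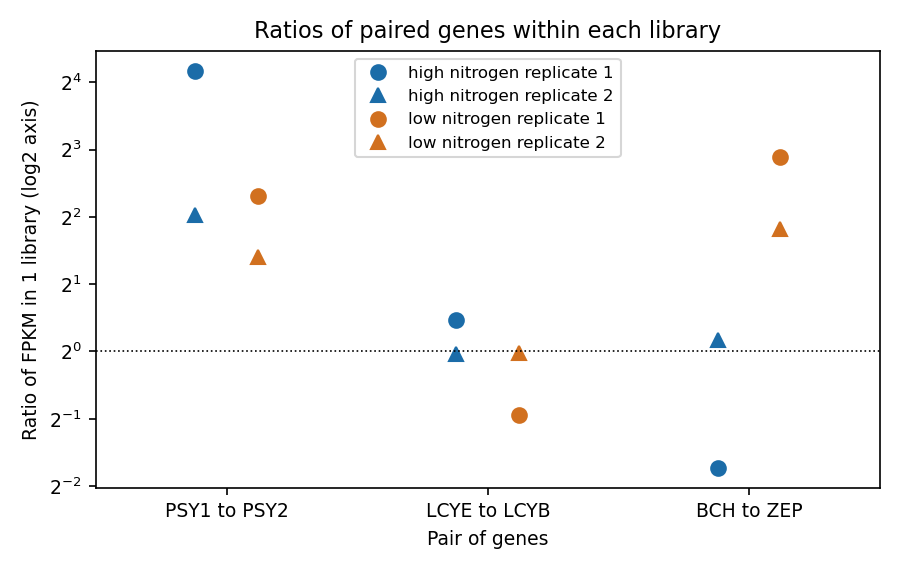
Ratio of FPKM between paired genes within each library on a log2 axis, with circles for replicate 1, triangles for replicate 2 and a dotted line at equal levels. BCH to ZEP is the pair whose groups do not overlap, with 0.301 and 1.12 under high nitrogen against 7.37 and 3.53 under low nitrogen.

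The enzymes before and after these steps were taken from lists of the pathway, of which an ID was kept only where the table, the study or RefSeq names it with that role. No gene in these lists passed the call rule in the fit described above. Among the precursor enzymes of the plastid route to GGPP, 5 of the 14 listed genes could be named, so they do not stand for the whole route. All 5 had a log2 fold change below 0, of which 4 were above 0 under equal FPKM sums. Their median was -0.43 as deposited and 0.28 under equal sums, against 0.59 for all tested loci under that scaling. HDR, the reductase that ends this route, had 112.1 and 95.02 FPKM under high nitrogen against 53.7 and 53.9 FPKM under low nitrogen, for a log2 fold change of -0.93 (standard error 0.23, unadjusted p = 0.00946, adjusted p = 0.144). DXR, which makes methylerythritol phosphate, had 156.0 and 153.3 FPKM under high nitrogen against 99.6 and 90.9 FPKM under low nitrogen, for a log2 fold change of -0.69 (adjusted p = 0.194). The groups did not overlap in HDR, DXR and DXS1, with lower levels in low nitrogen, as in 27.2% of all tested loci. DXS1 had 422.8 and 436.6 FPKM under high nitrogen against 396.7 and 256.3 FPKM under low nitrogen. The groups of HDS1 and DXS2 overlapped. DXS1 and HDS1 had log2 fold changes of -0.43 and -0.25 (adjusted p = 0.480 and 0.665). DXS2, a second gene for the enzyme that starts the route, was higher in replicate 2 than in replicate 1 of both groups. Its level was 4.48 and 31.5 FPKM under high nitrogen against 1.67 and 41.1 FPKM under low nitrogen (log2 fold change -0.33, standard error 1.52). The mean FPKM of DXS2 went the other way, with 18.0 under high and 21.4 under low nitrogen.

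Of further carotenoid enzymes, 2 could be named. CRTISO2, a second carotenoid isomerase gene, was between 1.67 and 2.90 FPKM, with a log2 fold change of -0.38 (adjusted p = 0.469). The hydroxylase gene GRMZM2G164318, which RefSeq names BCH1 and crtRB3, had 29.4 and 67.4 FPKM under high nitrogen against 43.3 and 54.2 FPKM under low nitrogen, for a log2 fold change of 0.12 (adjusted p = 0.909). As in BCH and PSY2, high nitrogen replicate 1 was the lowest of its 4 libraries.

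Among the genes that cleave carotenoids or lead to abscisic acid, 8 loci could be named and 6 were tested. Of these, 2 had a lower and 4 a higher level in low nitrogen. The higher ones include 2 loci, both paired with AO2, that stand for a single RefSeq gene. CCD1, a dioxygenase that cuts carotenoids into scent and flavour compounds, had 361.5 and 393.3 FPKM under high nitrogen against 141.1 and 293.4 FPKM under low nitrogen, for a log2 fold change of -0.89 (adjusted p = 0.305). The groups did not overlap, though the low nitrogen replicates stood further from each other than replicate 2 of low nitrogen did from high nitrogen. Without low nitrogen replicate 1 the log2 fold change was -0.36, and without low nitrogen replicate 2 it was -1.41. VP14, which cleaves the epoxycarotenoids that ZEP helps to make, was between 1.33 and 1.76 FPKM in the 4 libraries (log2 fold change 0.12, adjusted p = 0.846). CCD7 and CCD8, which serve strigolactone synthesis, were listed at 0 in high nitrogen replicate 1, stayed under 1 FPKM elsewhere and were not tested.

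The aldehyde oxidase genes, a family with members in abscisic acid and auxin synthesis, had the highest log2 fold changes of that list. AO1 had 1.52 and 5.53 FPKM under high nitrogen against 12.5 and 21.3 FPKM under low nitrogen, for a log2 fold change of 2.10 (standard error 0.53, unadjusted p = 0.0113, adjusted p = 0.152). The 2 table rows that RefSeq pairs with AO2, GRMZM2G124175 and GRMZM5G899851, had log2 fold changes of 1.72 and 1.75 (adjusted p = 0.192 and 0.155). They lie near each other on chromosome 5 and stand for a single RefSeq gene, so they are not separate observations. Without high nitrogen replicate 1, the lowest library of all 3 loci, the log2 fold change was 1.41 for AO1 and 1.02 and 1.17 for the AO2 rows. In each of these 3 loci both low nitrogen libraries were above both high nitrogen libraries, as in 26.6% of all tested loci. The same held for VP14 by a narrow margin, with 1.524 FPKM in low nitrogen replicate 2 against 1.522 in high nitrogen replicate 1. VP15, whose bounds overlap another locus and which serves the molybdenum cofactor that aldehyde oxidases need, had 57.1 and 65.5 FPKM under high nitrogen against 19.5 and 45.1 FPKM under low nitrogen (log2 fold change -1.02, adjusted p = 0.277). Without low nitrogen replicate 1 it was -0.43, and without low nitrogen replicate 2 it was -1.60. The groups of VP15 did not overlap, with lower levels in low nitrogen, as in 27.2% of all tested loci.

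GGPP also feeds other products, and 4 genes of such branches were named, 3 with a log2 fold change below 0. GGR (GRMZM2G105644), the geranylgeranyl reductase that supplies the tail of chlorophyll and tocopherol, had 1536.0 and 1536.7 FPKM under high nitrogen against 526.5 and 473.0 FPKM under low nitrogen. Both low nitrogen libraries were about equally far under the nearly identical high nitrogen pair, with a log2 fold change of -1.62 (standard error 0.24, unadjusted p = 0.00118, adjusted p = 0.0837). HPT1 (GRMZM2G048472, in RefSeq VTE2-1), the homogentisate phytyltransferase of tocopherol synthesis, went the other way, with 18.5 and 36.4 FPKM under high nitrogen against 132.2 and 92.2 FPKM under low nitrogen (log2 fold change 2.04, standard error 0.40, adjusted p = 0.118). Both are in the study's own list of changed genes from the same libraries, so their direction is not independent evidence. AN1 and CPS1, the other two, had log2 fold changes of -0.57 and -0.08 (adjusted p = 0.393 and 0.873), CPS1 being at 0.56 under equal FPKM sums.

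**Figure D3:**
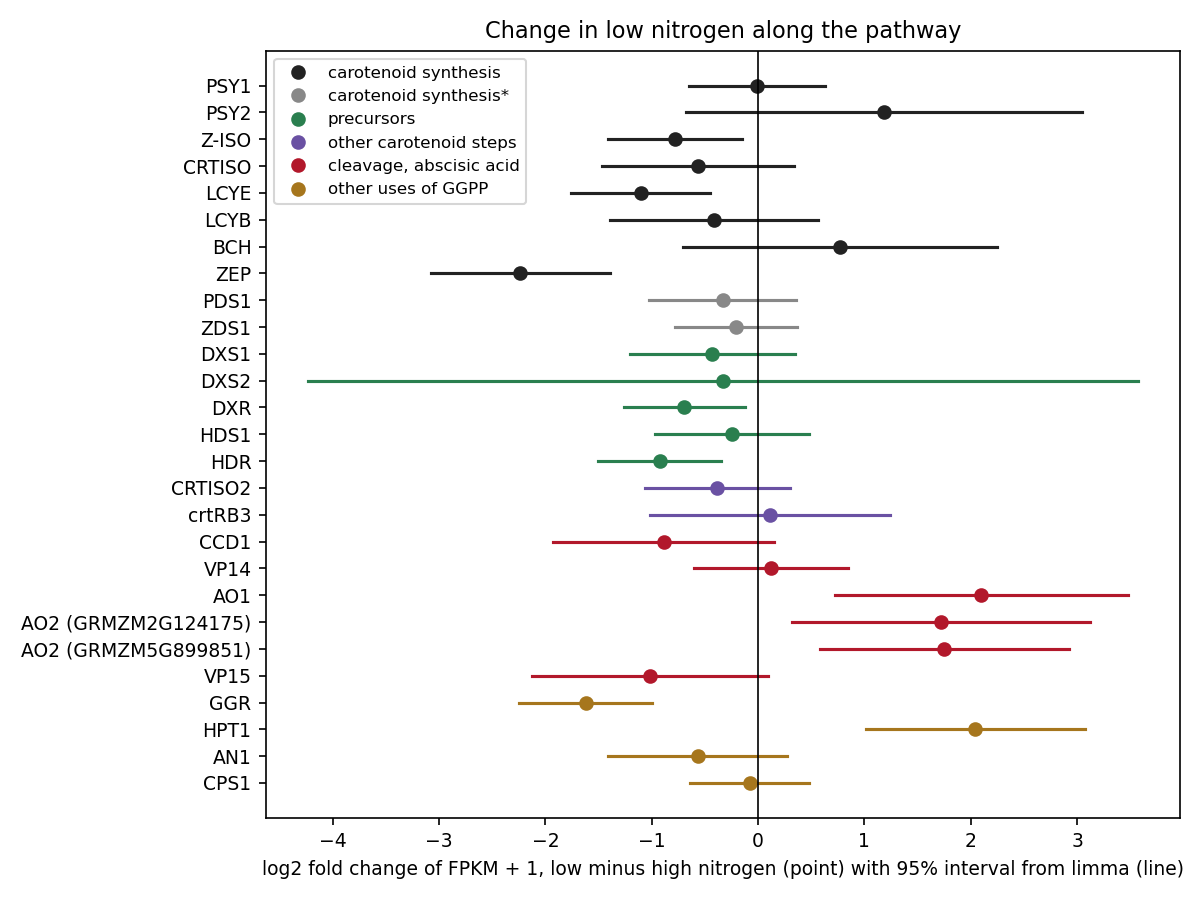
Log2 fold change of FPKM + 1, low minus high nitrogen, with its 95% interval from limma, for the carotenoid synthesis genes (black, and grey with a star for PDS1 and ZDS1) and the named genes before, beside and after them. ZEP at -2.24 lies furthest to the left, AO1 at 2.10 and HPT1 at 2.04 furthest to the right, and the interval of PSY1 from -0.65 to 0.63 is centred near 0.

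The scaling of the libraries moved these values. With all FPKM brought to equal sums, the median log2 fold change of all tested loci moved from -0.01 to 0.59, and relative to that shift the median of the 8 members was -0.41, against -0.48 as deposited. ZEP, LCYE and Z-ISO kept a log2 fold change below 0 under equal sums, with -1.56, -0.41 and -0.08. PSY1, CRTISO, LCYB, PDS1 and ZDS1 changed sign to a value above 0, while all except PSY1 stayed under the shift of 0.59.

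**Figure D4:**
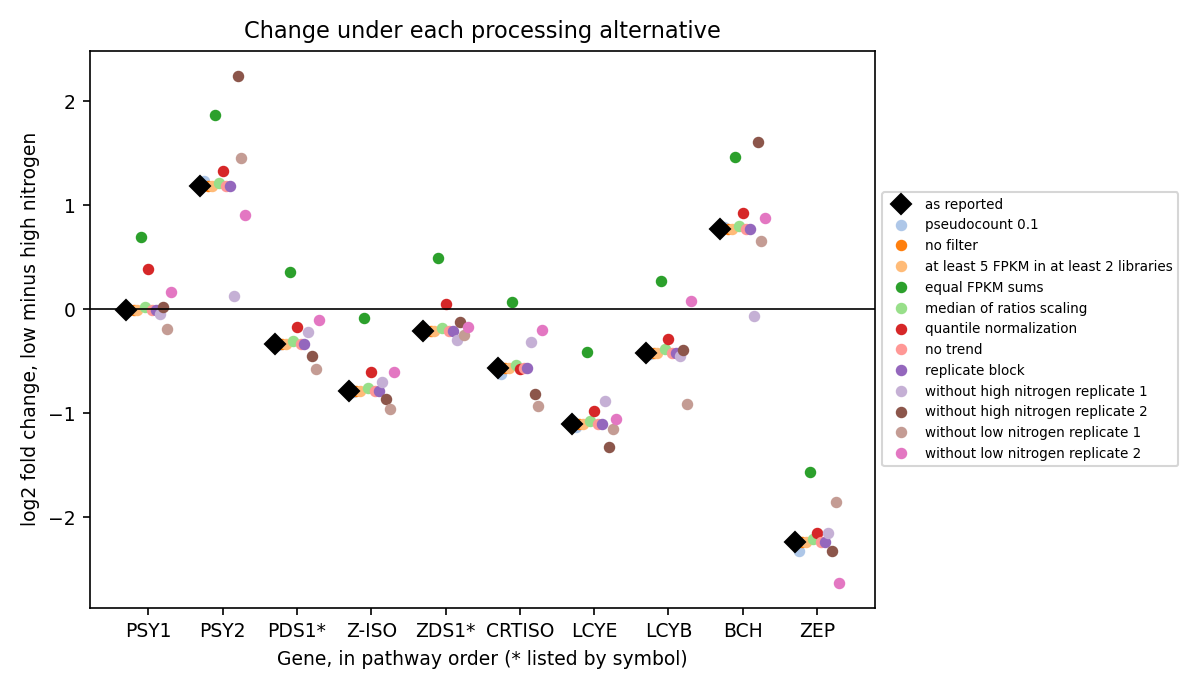
Log2 fold change, low minus high nitrogen, of each gene as reported (black diamond) and under 12 processing alternatives (coloured points). ZEP, LCYE and Z-ISO stay below 0 and PSY2 stays above 0 in all 12, BCH is at -0.06 without high nitrogen replicate 1, and PSY1 lies on both sides of 0. Alternatives that change only the filter or the fit leave each value as it is, so those points could not change sign. The groups of ZEP, LCYE and Z-ISO do not overlap. In these genes another pseudocount or leaving a library out could not turn the sign either, so only the scalings could.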

How the data were processed

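Paired reads were trimmed by the authors and mapped with TopHat2 to the B73 RefGen_v3 genome, and StringTie assembled the transcripts. The authors deposited FPKM per locus (tool versions are not given in the sources used here). Their own test needs counts, so log2(FPKM + 1) was compared here with limma 3.58.1 in R 4.3.3 (lmFit, eBayes with trend, Benjamini-Hochberg adjustment), once for each of the 22889 distinct loci that reached 1 FPKM in at least 2 libraries. The table has 44070 rows, since 865 loci carry several names. Locus starts are written from 1. Fragment totals are unknown from FPKM. The smallest steps of 917 low loci gave approximate relative depths of 1, 1.14, 1.40 and 1.78 for high nitrogen replicates 1 and 2 and low nitrogen replicates 1 and 2.

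All 10 listed genes, and every named and tested gene of the pathway lists, are described. The members and lists were chosen with earlier results of these data known. Names come from the table, the study, and RefSeq (assembly Zm-B73-REFERENCE-NAM-5.0), in which 18838 of 39206 annotated names were found. RefSeq names neither Z-ISO, LCYB nor ZEP, whose names come with the list of IDs. Listed IDs for which no source gave a name are not reported. Symbols shared with another gene than the listed ID were dropped. Ratios were tested by an exact permutation test (scipy 1.17.1). The fit was run on simulated data with seeded changes larger than most of those reported here, so it does not bear on the power for smaller ones. Alternatives were a pseudocount of 0.1, no filter, a minimum of 5 FPKM, 3 scalings (equal sums, median of ratios, quantile), a fit without trend, one with the replicate number as a block, calls with no minimum fold change, and each library left out. A gene of the marker list is not reported here.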

Additional observations from a re-analysis of the deposited data

How the results depend on the processing

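With the replicate number as a block, 1 member was called, ZEP (adjusted p = 0.0373), against 2.07% of all tested loci called lower, and the 3 aldehyde oxidase loci were called higher (adjusted p from 0.0364 to 0.0480), against 0.625% of all tested loci. The labels share replicate numbers but do not say that they pair libraries. In the sample descriptions the number differs between the replicate 1 libraries of the groups and is the same only for replicate 2. The deviations of same-numbered libraries had a correlation of 0.203 across loci, over 2 pairs only. The block changed no other call among the named genes, and no other alternative called a member. Over all loci, 123 were called, 617 with the block, 60 under equal FPKM sums, 23 without the filter, and between 0 and 16 with each library left out. With equal FPKM sums the median of the members was 0.18 and 3 members were lower, while the median of all loci was 0.59 and 3701 of 22889 tested loci were lower. The deposited sums were 1.80e+06 and 1.76e+06 under high nitrogen against 1.14e+06 and 1.04e+06 under low nitrogen. Bringing them to equal sums therefore raises all low nitrogen values relative to high nitrogen. As deposited, the median log2 FPKM of loci reaching 1 FPKM in every library differed little. It was 3.53 and 3.57 under high nitrogen against 3.55 and 3.55 under low nitrogen. Why the sums differ was not tested. Leaving out each library in turn gave median log2 fold changes of the members from -0.92 (without low nitrogen replicate 1) to -0.061 (without low nitrogen replicate 2). With PDS1 and ZDS1 counted too, an alternative added after the data were seen, no call was made.

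Values that changed sign under equal sums were 0.70 for PSY1, 0.076 for CRTISO, 0.28 for LCYB, 0.36 for PDS1, 0.49 for ZDS1, 0.28 for DXS1, 0.28 for DXS2, 0.0067 for DXR, 0.46 for HDS1, 0.11 for CRTISO2 and 0.56 for CPS1. Under quantile normalization they were 0.39 for PSY1, 0.053 for ZDS1, 0.048 for DXS1 and 0.10 for HDS1, and under the median of ratios 0.023 for PSY1. With each library left out, ranges crossing 0 were -0.18 to 0.17 for PSY1, -0.91 to 0.079 for LCYB, -0.063 to 1.61 for BCH, -2.32 to 1.66 for DXS2, -0.51 to 0.012 for HDS1, -0.47 to 0.70 for crtRB3 and -0.18 to 0.021 for CPS1.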

Other observations

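In PSY2, BCH, crtRB3, DXS2, AO1, both AO2 rows and HPT1, high nitrogen replicate 1 was lower than high nitrogen replicate 2. The gap ran from 1.96-fold (HPT1) to 7.03-fold (DXS2). Replicate 1 was also the lower in PSY1, LCYB, ZDS1, DXS1, HDS1, CCD1, VP15 and GGR, by at most 1.15-fold (VP15). The share of all tested loci with this direction was not counted. In PSY2 the 2 libraries stood 4.64-fold apart and in BCH 3.29-fold, while the other 6 members differed by 1.04-fold (LCYB) to 1.46-fold (CRTISO). The genes with the wider gaps were picked out after their values were seen, and no label gives a difference between the 2 libraries beyond their number.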
